A study of Mus musculus with 6 samples.

Results

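Hyaluronan is a long unsulphated sugar chain of the extracellular matrix, and 9 genes that make it, cut it or bind it were followed here in the dorsal skin of tight skin (TSK) mice. The genes were taken by symbol, as a set of functions, with earlier results of these data known: the synthases Has1, Has2 and Has3, the degrading enzymes Hyal1, Hyal2 and Cemip, and the binding proteins Cd44, Vcan and Tnfaip6. They are 9 of the 55291 genes in the deposited tables, and all 9 passed the filter on low counts and were tested. Bulk RNA sequencing was performed on the dorsal skin of 3 TSK and 3 wild-type (WT) mice, 1 library per mouse. TSK mice carry a mutated Fbn1 gene, an internal duplication that lengthens fibrillin-1, a protein of the elastic microfibrils. The mutation is present in every cell of the animal, not in fibroblasts alone. WT mice were littermates without it, and no other allele or treatment is named for either group. Both groups are C57BL/6 females of 6 to 8 weeks by the sample labels, whereas the study's methods describe males, so the sex of these animals differs between the sources.

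Hyaluronan is spun out through the plasma membrane by the synthases, which join UDP-glucuronic acid and UDP-N-acetylglucosamine taken from the cytosol. In the skin it is made mostly by dermal fibroblasts and also by keratinocytes, it holds water between the collagen fibres, and it turns over fast. The chains are cut outside the cell by CEMIP, which was known as KIAA1199, and by HYAL2 at the cell surface, and the fragments are digested in the lysosome by HYAL1. CD44 is the chief cell surface receptor, versican (Vcan) is a large proteoglycan that binds the chains through its head domain, and TSG-6 (Tnfaip6) moves heavy chains of inter-alpha-trypsin inhibitor onto them.

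The sequences just before the start of transcription are shown for the 3 genes whose difference between TSK and WT had an unadjusted p under 0.05 (Has1, Cemip and Vcan) and for Tnfaip6, whose log2 fold change was nearest to 0. They were picked after the values were seen. The source is the 250 bases before the RefSeq start on the gene's own strand, in GRCm38.p6, the same assembly as mm10, and 7 of the 9 genes had such an entry. Of those bases, the last 17 of Has1 and the last 104 of Tnfaip6 lie inside the gene as the files annotate it, so for these 2 genes only the 233 and 146 bases outside the annotated gene are printed. Motif distances are counted back from the RefSeq start. The Has1 sequence lies at chr17:17855206-17855438 on the minus strand, that of Cemip at chr7:84086506-84086755 on the minus strand, that of Vcan at chr13:89742513-89742762 on the minus strand and that of Tnfaip6 at chr2:52037863-52038008 on the plus strand. Capitals mark matches on either strand to 5 short motifs, the TATA box TATAAA, the CCAAT box CCAAT, the GC box GGGCGG, the cyclic AMP response element TGACGTCA and the AP-1 site TGANTCA.
Has1: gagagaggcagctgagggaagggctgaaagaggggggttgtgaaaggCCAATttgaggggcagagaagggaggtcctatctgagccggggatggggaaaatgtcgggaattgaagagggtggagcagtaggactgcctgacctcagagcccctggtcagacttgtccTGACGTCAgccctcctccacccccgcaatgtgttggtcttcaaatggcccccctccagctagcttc
Cemip: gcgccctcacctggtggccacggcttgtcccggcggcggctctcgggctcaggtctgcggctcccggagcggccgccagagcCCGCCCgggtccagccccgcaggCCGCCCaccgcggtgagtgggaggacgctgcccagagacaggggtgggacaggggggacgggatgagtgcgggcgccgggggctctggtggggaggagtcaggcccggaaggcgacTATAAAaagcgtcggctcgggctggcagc
Vcan: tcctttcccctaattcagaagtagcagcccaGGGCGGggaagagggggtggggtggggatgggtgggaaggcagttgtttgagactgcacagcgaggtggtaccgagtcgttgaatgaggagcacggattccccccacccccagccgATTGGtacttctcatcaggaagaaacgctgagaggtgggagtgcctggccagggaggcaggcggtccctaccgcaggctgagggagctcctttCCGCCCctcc
Tnfaip6: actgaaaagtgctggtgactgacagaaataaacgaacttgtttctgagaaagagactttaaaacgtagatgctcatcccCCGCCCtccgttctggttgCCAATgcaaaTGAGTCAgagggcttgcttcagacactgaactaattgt

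The 4 sequences differed in the motifs they held. In Has1 a CCAAT box began 203 bases before the start and a full cyclic AMP response element 83 bases before it, and neither a TATA box nor a GC box was found. The full response element was present in 1.55% of 32851 upstream sequences of this length and the CCAAT box in 33.8%. Cemip alone among the 4 had a TATA box, 29 bases before the start, a motif held by 12.4% of all upstream sequences, and it had GC boxes at 168 and 145 bases. In Vcan a CCAAT box on the other strand began at 103 bases, between GC boxes at 219 and 10 bases, and the GC box occurred in 32.7% of all upstream sequences. Tnfaip6, a gene known to respond to inflammatory signals, held a CCAAT box at 152 bases, a GC box at 171 bases and an AP-1 site at 142 bases, which 6.75% of all upstream sequences held. A further CCAAT box of Tnfaip6 at 81 bases lies inside the gene as annotated in the files. These are matches of letters only, and no binding was measured.

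The libraries were of similar depth, between 17561453 and 19219814 estimated counts each. Fbn1, the mutated gene, stood at 267, 289 and 262 CPM in the WT libraries (CPM, the count of a gene scaled by its library total) and at 1538, 2284 and 2007 CPM in the TSK libraries (log2 fold change 2.54, edgeR adjusted p = 0.00327), so every library matched its label. The defining genes of skin were present, with summed levels of 6 basal keratinocyte genes at 3974 to 7715 CPM in WT and 3870 to 6154 CPM in TSK. Skeletal muscle genes, 12 in number, took 151500 to 219500 CPM in WT and 132200 to 149100 CPM in TSK, with no call in edgeR and with 9 called lower and 1 higher in DESeq2. A set of 14 fibroblast genes, none at 0, summed to 7123 to 11010 CPM in WT and 21990 to 49740 CPM in TSK, without overlap, and 2 of the 14 (Thy1 and Dpt) passed the test in edgeR and 8 in DESeq2, all higher in TSK. A set of 10 macrophage genes summed to 239.8 to 381.7 CPM in WT and 444.1 to 1239 CPM in TSK, none of them past the test in edgeR and 4 in DESeq2, all higher in TSK. The largest median shift among the marker lists was that of 10 adipocyte genes (log2 fold change 2.80, 3 called higher), at 2903 to 3506 CPM in WT and 3066 to 7560 CPM in TSK. Of the hair follicle genes 3 of 8 tested were called higher (median 1.86, 30.35 to 63.99 CPM in WT and 66.94 to 78.63 CPM in TSK), and of the differentiated keratinocyte genes 2 of 9 (median 0.51, 1684 to 2658 CPM in WT and 2904 to 4883 CPM in TSK). These sums used deposited CPM, which is not scaled for differences in library composition. In whole tissue, more cells of a type and more RNA per cell cannot be told apart. The part of these shifts in the differences below was not tested, and levels relative to the fibroblast genes are given further on.

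None of the 9 genes differed between TSK and WT at an adjusted p under 0.05 in edgeR's quasi-likelihood test, against 3.39% of the 19971 genes tested (2.71% higher and 0.681% lower in TSK). At an unadjusted p under 0.05, 3 of the 9 differed (Has1, Cemip and Vcan), all higher in TSK, where 20% of all genes did so in either direction and 12.1% in that direction. DESeq2 called 2 of the 9, Has1 and Vcan, both higher in TSK, against 7.48% of all genes in either direction and 5.5% higher. On deposited CPM the TSK libraries all lay above the WT libraries for 5 genes (Has1, Has2, Hyal2, Cemip and Vcan), a pattern of 29.1% of all genes, and for none did they all lie below, a pattern of 2.58%. After scaling by the trimmed mean of M-values (TMM), which offsets differences in library composition, 3 genes kept that separation (Has1, Has2 and Vcan), against 14.1% of all genes, and none was separated the other way, against 10.6%. The log2 fold change was above 0 for 5 of the 9, with a median of 0.29, where the median of all genes was -0.03. With no TMM factor the median of all genes moved to 0.25 and that of the 9 genes to 0.57, with 8 of the 9 above 0 and 94.8% of all calls higher in TSK in place of 79.9%. At the limits the study used with DESeq2, a fold above 2.5 and an adjusted p under 0.01, none of the 9 was called in edgeR, against 0.29% of all genes. None of the 9 met those limits with DESeq2 either.

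**Figure D1:**
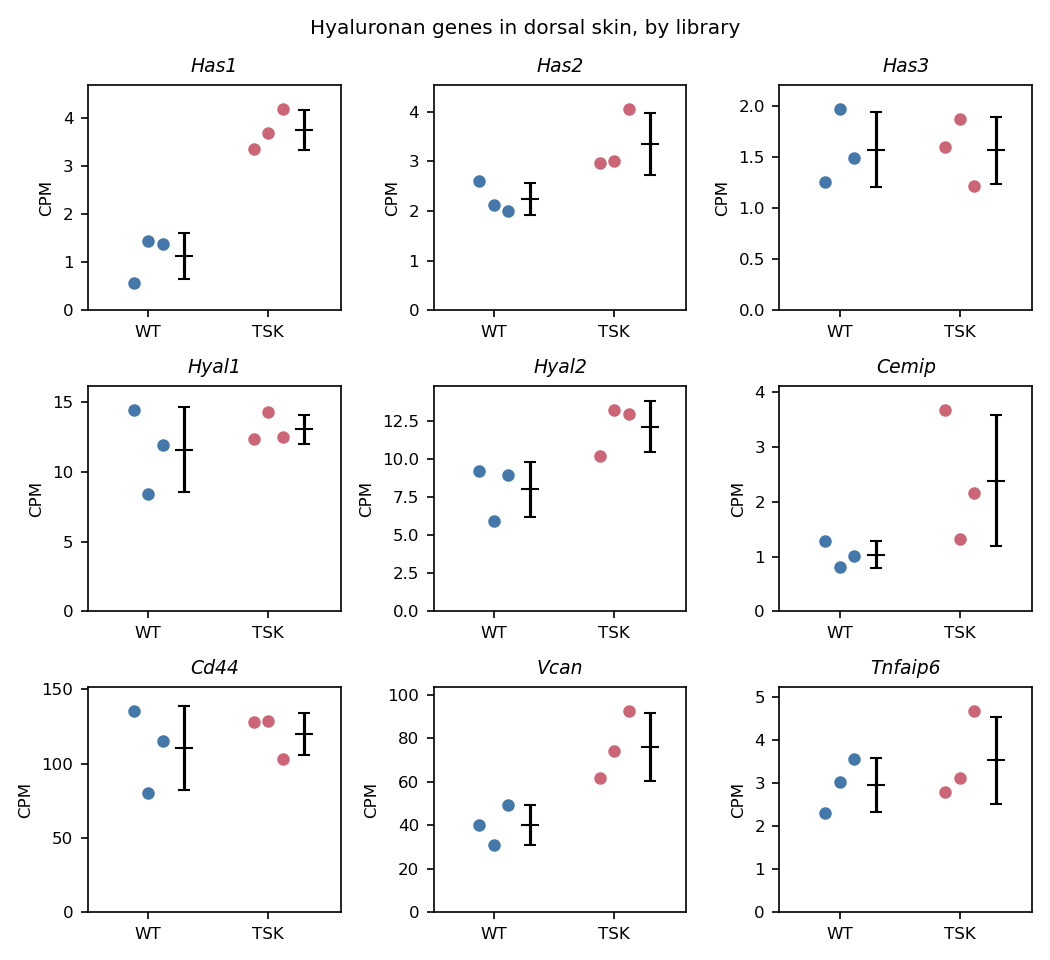
Level of each of the 9 hyaluronan genes in CPM (y axis, from 0) in the 3 WT (blue) and 3 TSK (red) libraries, with the group mean and SD in black. Points of TSK sit above all points of WT for Has1, Has2, Hyal2, Cemip and Vcan and mix with them for Has3, Hyal1, Cd44 and Tnfaip6.

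Among the synthases, Has1 showed the widest separation and Has3 none. Has1, at chr17:17843323-17855205 on the minus strand of mm10, was measured at 0.570, 1.44 and 1.37 CPM in WT and at 3.35, 3.69 and 4.19 CPM in TSK. The lowest TSK library thus stood above the highest WT library, and 1 WT library was lower than the other two. The means were 1.13 ± 0.484 CPM in WT and 3.75 ± 0.421 CPM in TSK (SD, n = 3), a ratio of 3.32. The log2 fold change was 1.41 with a standard error of 0.37 and a 95% interval of 0.58 to 2.25, and the adjusted p by edgeR was 0.0767. The adjusted p was 0.0144 by DESeq2, and in edgeR it was 0.0236 with no filter on low counts and 0.0171 with library size only, so the call depends on the tool, the filter and the scaling. The gene was thinly covered, with 10, 27 and 25 counts in WT and 61, 71 and 79 in TSK, and the 10 counts of the lowest library carry an exact Poisson interval of 4.80 to 18.4, which covers counting error only.

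Has2, the synthase that the embryo cannot do without, lies at chr15:56665627-56694539 on the minus strand and was measured at 2.61, 2.12 and 2.01 CPM in WT and at 2.97, 3.00 and 4.06 CPM in TSK. The groups did not overlap, but 1 TSK library was well above the other two, which lay close to the highest WT library. The means of 2.25 ± 0.317 and 3.35 ± 0.622 CPM (SD, n = 3) gave a log2 fold change of 0.29 after TMM scaling, with a 95% interval of -0.21 to 0.79 and an adjusted p of 0.507. On TMM-scaled CPM the separation was narrow, with 2.59 in the highest WT library and 2.71 in the lowest TSK library. The noncoding gene Has2os runs on the opposite strand and shares 182 exon bases with Has2. Its own log2 fold change was -0.10 (adjusted p = 0.93), at 0.595 ± 0.353 CPM in WT and 0.656 ± 0.151 CPM in TSK. The library kit kept strand, but the sources used here do not state that the counting did, so reads in those bases may belong to either gene.

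Has3, a synthase found also in keratinocytes, lies at chr8:106870242-106884566 on the plus strand and was measured at 1.25, 1.97 and 1.48 CPM in WT and at 1.59, 1.87 and 1.22 CPM in TSK. The 2 groups overlapped fully and their means were nearly equal, 1.57 ± 0.366 and 1.56 ± 0.328 CPM (SD, n = 3). The log2 fold change was -0.30 with a 95% interval of -1.05 to 0.44 (adjusted p = 0.663), an interval too wide to show a difference of moderate size in either direction. A stretch of 360 bases of Has3 transcripts matched the reverse strand of Chtf8 at 99.4% identity. The libraries were stranded, whether the counting used strand is not stated in the sources used here, and all 6 Has3 counts were whole within 0.001. Chtf8 itself rose, from 17.1 ± 2.38 to 32.4 ± 4.47 CPM (SD, n = 3), with a log2 fold change of 0.66 (adjusted p = 0.0437).

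Set per kilobase of merged exons and scaled to an equal total in every library, so that genes can be compared, the 3 synthases summed to 1.36, 1.96 and 1.79 in WT and to 2.85, 3.77 and 3.63 in TSK. Every TSK library lay above every WT library in this summed level, with means of 1.70 ± 0.309 and 3.42 ± 0.495 (SD, n = 3), a ratio of 2.01. This scale has no TMM factor: on it the median ratio of 19531 genes was 1.33, and 43.6% of them were separated in this direction and 1.01% in the other. On TMM-scaled CPM per kilobase the sum was 1.15 ± 0.228 in WT and 1.69 ± 0.135 in TSK, a ratio of 1.48, and the groups still did not overlap. Has1 made up 13.4%, 28.2% and 30.1% of the sum in WT and 43.8%, 44.9% and 44.7% in TSK. The share of Has2 was 65.6%, 44.4% and 46.9% in WT and 41.4%, 39.0% and 46.1% in TSK, and these values overlapped. The share of Has3 did not overlap between the groups, at 20.9%, 27.4% and 23.0% in WT and 14.8%, 16.1% and 9.20% in TSK. Read as a ratio, the level of Has1 per level of Has2 was 0.205, 0.635 and 0.641 in WT and 1.06, 1.15 and 0.968 in TSK. In WT skin Has2 was thus the leading synthase in each library, and in TSK skin the means of Has1 and Has2 were 1.52 ± 0.238 and 1.44 ± 0.249. The gap in TSK depends on the length used, since per kilobase of the longest transcript the means were 1.76 for Has1 and 1.31 for Has2. Has1 had the higher mean with either length. These shares are descriptions with no test, and shares of a sum do not move independently.

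**Figure D2:**
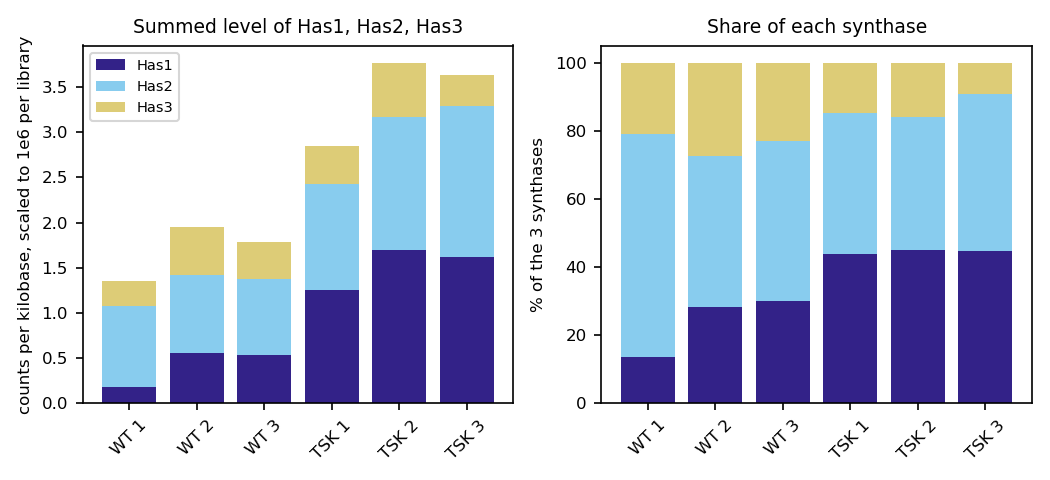
Level of Has1, Has2 and Has3 in each library, stacked, in counts per kilobase of merged exons, scaled to the same total in every library (left), and as a percent of their sum (right). The summed level is 1.36 to 1.96 in WT and 2.85 to 3.77 in TSK, and the Has1 share is at most 30.1% in WT and at least 43.8% in TSK.

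The synthases draw on a supply of sugar nucleotides, and a list of 9 enzymes of the metabolism of these precursors was followed. Of these, 5 rose in TSK skin while none fell (edgeR adjusted p under 0.05), with a median log2 fold change of 0.68 over the 9. All 9 were tested, and of all genes 2.71% were called higher. Ugdh, which oxidises UDP-glucose to UDP-glucuronic acid, was measured at 31.0, 19.5 and 20.2 CPM in WT and at 62.2, 74.6 and 96.2 CPM in TSK. Every TSK library stood well above every WT library, and the log2 fold change was 1.46 ± 0.18 (SE, adjusted p = 0.00888). Gfpt2, a form of the enzyme that opens the hexosamine pathway, was measured at 14.9, 12.7 and 10.95 CPM in WT and at 44.97, 46.1 and 87.95 CPM in TSK, with a log2 fold change of 1.93 ± 0.26 (SE, adjusted p = 0.011). Its sister gene Gfpt1 was measured at 41.9, 42.4 and 47.1 CPM in WT and at 49.3, 55.3 and 51.6 CPM in TSK, with a log2 fold change of -0.04, a 95% interval of -0.34 to 0.26 and an adjusted p of 0.909. Per length, the level of Gfpt2 was 0.640, 0.538 and 0.419 of that of Gfpt1 in WT and 1.645, 1.501 and 3.07 of it in TSK.

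The other 3 of the 5 lie further along the same hexosamine route. Uap1, which makes UDP-N-acetylglucosamine in the last step, was measured at 29.1, 34.0 and 34.4 CPM in WT and at 60.2, 83.8 and 85.0 CPM in TSK (log2 fold change 0.93 ± 0.18 SE, adjusted p = 0.0307). Pgm3, the phosphomutase before it, was measured at 7.76, 6.21 and 6.95 CPM in WT and at 12.7, 14.02 and 15.4 CPM in TSK (0.74 ± 0.14 SE, adjusted p = 0.0282). Gnpnat1, the acetyltransferase of the pathway, was measured at 6.09, 4.79 and 5.94 CPM in WT and at 10.3, 11.6 and 10.7 CPM in TSK (0.68 ± 0.15 SE, adjusted p = 0.0475). For each of these 3 genes the groups were far apart next to the spread within them. UDP-N-acetylglucosamine also feeds the N-glycans and other glycosylation, so the list is not exclusive to hyaluronan. The remaining genes of the list were not called, Ugp2 (-0.32, adjusted p = 0.635), Nagk (0.26, adjusted p = 0.496) and Amdhd2 (0.16, adjusted p = 0.717). The calls depended on which library was left out. Without WT 3, none of the 5 was called, with adjusted p of 0.0561 for Ugdh and 0.0618 for Gfpt2, without WT 2, TSK 2 or TSK 3 only those 2 were called, and without TSK 1 Uap1 joined them. Without WT 1, Gnpnat1 alone was lost (adjusted p = 0.0575). Gnpnat1 was called in only 8 of 17 alternative settings, and with all 6 libraries it was also lost with upper quartile scaling (adjusted p = 0.0567) and with limma-voom (adjusted p = 0.0535).

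**Figure D3:**
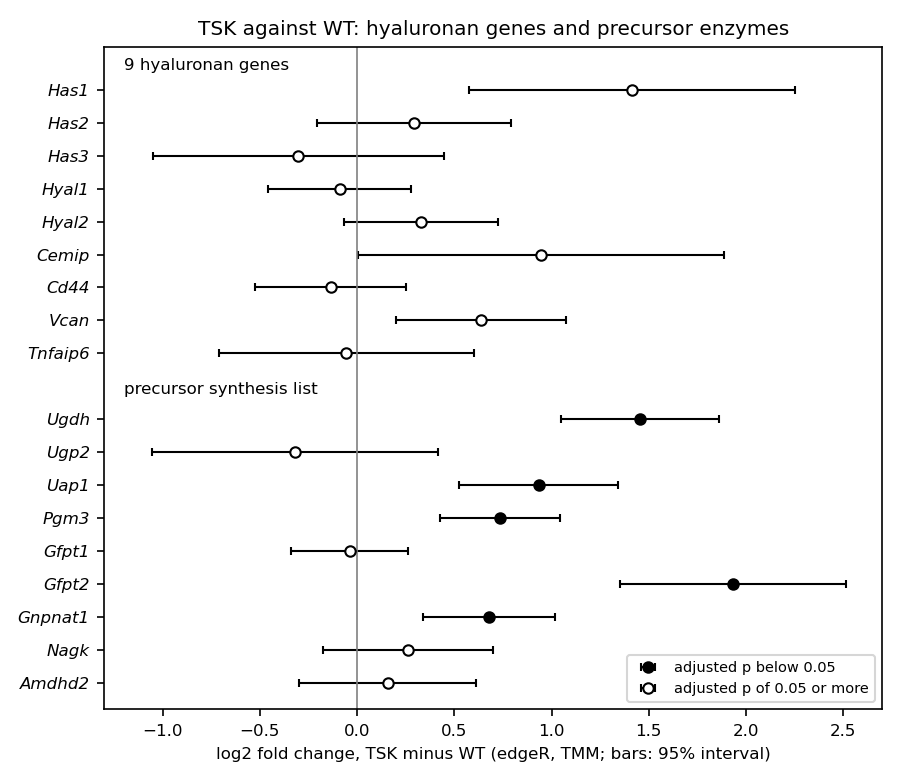
The log2 fold change (TSK minus WT, x axis) from edgeR with TMM scaling, with its 95% interval, for the 9 hyaluronan genes and the 9 precursor enzymes. Filled points passed an adjusted p under 0.05, which holds for Ugdh, Uap1, Pgm3, Gfpt2 and Gnpnat1 and for none of the 9 hyaluronan genes, although the intervals of Has1, Cemip and Vcan lie above 0.

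Of the degrading enzymes, Cemip and Hyal2 were higher in every TSK library on deposited CPM and Hyal1 was not. Cemip, at chr7:83932857-84086502 on the minus strand, was measured at 1.29, 0.808 and 1.01 CPM in WT and at 3.68, 1.32 and 2.16 CPM in TSK. The TSK libraries were spread widely, from one that was level with the highest WT library to one far above it. The means of 1.04 ± 0.245 and 2.39 ± 1.20 CPM (SD, n = 3) gave a ratio of 2.30, a log2 fold change of 0.95 with a 95% interval of 0.0069 to 1.89 and an adjusted p of 0.247, and TMM scaling brought the groups into overlap. The gene had 23, 15 and 18 counts in WT and 67, 25 and 41 in TSK, and its log2 fold change ranged from 0.46 to 1.25 when 1 library was left out.

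Hyal2 was measured at 9.17, 5.91 and 8.91 CPM in WT and at 10.2, 13.2 and 12.9 CPM in TSK. The TSK libraries lay above the WT libraries by a small gap, and on TMM-scaled CPM the groups overlapped. The ratio of the means was 1.51, from 8.00 ± 1.81 to 12.1 ± 1.68 CPM (SD, n = 3), and the log2 fold change was 0.33 with a 95% interval of -0.07 to 0.73 (adjusted p = 0.335). Hyal1 was measured at 14.4, 8.42 and 11.9 CPM in WT and at 12.3, 14.2 and 12.5 CPM in TSK, and the groups overlapped. Its log2 fold change was -0.09 with a 95% interval of -0.46 to 0.28 (adjusted p = 0.805), and the sign turned to 0.17 without TMM scaling. Per length, the level of Hyal2 relative to Hyal1 was 0.728, 0.805 and 0.859 in WT and 0.946, 1.06 and 1.19 in TSK, without overlap and without a test.

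Hyal1 and Hyal2 sit side by side on chromosome 9, at chr9:107576927-107581710 and chr9:107567945-107572779 in mm10, both on the plus strand. The exons of Hyal1 are shared with other genes of the same strand, 1920 bases with Naa80, an acetyltransferase of actin, and 159 bases with Hyal3, so its estimated counts depend on how reads were divided among them. Naa80 itself was at 13.8 ± 2.75 CPM in WT and 16.8 ± 1.84 CPM in TSK (SD, n = 3), with a log2 fold change of 0.02 (adjusted p = 0.955). None of the 6 Hyal1 counts was whole within 0.001, whereas all 6 Hyal2 counts were, so of these neighbours Hyal1 carried fractional counts and Hyal2 did not. Hyal1 transcripts also matched 31 other genes over at least 50 bases at 95% identity or more. The values of Hyal1 are uncertain for that reason.

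A list of other turnover genes gave the same absence of calls. Of 7 such genes in the table, 6 were tested, none passed in either direction in edgeR or DESeq2, and the median log2 fold change was 0.47. The largest values were those of Hyal4 (1.18, adjusted p = 0.27) and Hyal3 (0.80, adjusted p = 0.344), both near 1 CPM or under it, and Spam1, a hyaluronidase of sperm, had no counts in any library.

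Among the binding proteins, the groups were apart for Vcan and overlapped for Cd44 and Tnfaip6. Vcan, at chr13:89655312-89742509 on the minus strand, was measured at 40.2, 31.1 and 49.5 CPM in WT and at 61.7, 74.1 and 92.7 CPM in TSK. All TSK libraries lay above all WT libraries, also after TMM scaling, and the spread was wide in both groups. The means were 40.3 ± 9.22 and 76.2 ± 15.6 CPM (SD, n = 3), a ratio of 1.89. The log2 fold change was 0.64 with a standard error of 0.19, a 95% interval of 0.20 to 1.08 and an adjusted p of 0.111 by edgeR, and the adjusted p was 0.0399 by DESeq2. Against Fbn1, per length, Vcan was at 0.126, 0.0904 and 0.159 in WT and at 0.0336, 0.0272 and 0.0388 in TSK. Fbn1, the divisor, was itself higher in TSK (log2 fold change 2.54), so the lower ratio is no fall of Vcan. The normal Fbn1 length was used for both groups, although the TSK allele is lengthened. The antisense gene Gm4117 lies within Vcan on the opposite strand with no shared exon bases, at 58.7 ± 11.3 CPM in WT and 68.3 ± 9.03 CPM in TSK, with a log2 fold change of -0.05 (adjusted p = 0.875).

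Cd44 was measured at 136, 80.0 and 115 CPM in WT and at 128, 129 and 103 CPM in TSK. On deposited CPM the lowest and the highest library were both WT, and the TSK libraries fell between them. The means were 110.3 ± 28.1 and 119.9 ± 14.3 CPM (SD, n = 3), and the log2 fold change was -0.14 with a 95% interval of -0.52 to 0.25 (adjusted p = 0.71). On TMM-scaled CPM the lowest Cd44 library was TSK 3, at 91.8 against 97.4 in WT 2. Tnfaip6 was measured at 2.31, 3.02 and 3.56 CPM in WT and at 2.80, 3.12 and 4.69 CPM in TSK. Those groups overlapped, 1 TSK library was above all others, and the log2 fold change was -0.06 with a 95% interval of -0.71 to 0.60 (adjusted p = 0.942). The sign of both log2 fold changes turned without TMM scaling, to 0.12 for Cd44 and 0.24 for Tnfaip6. Both genes lie on chromosome 2, as Fbn1 does, Cd44 at chr2:102811141-102901665 on the minus strand, 22.4 Mb from it, and Tnfaip6 at chr2:52038009-52056686 on the plus strand, 73.2 Mb from it.

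Of 8 other hyaluronan receptors, 1 rose and none fell in edgeR, with a median log2 fold change of 0.15, and DESeq2 called 3 higher and none lower, where 2.71% of all genes were called higher in edgeR and 5.5% in DESeq2. The gene called by both was Lyve1, the receptor named for lymphatic endothelium and also carried by a class of tissue macrophages, which was measured at 7.97, 9.10 and 8.96 CPM in WT and at 23.6, 35.1 and 91.1 CPM in TSK. All TSK libraries were far above WT, and 1 of them was much higher than the other two. The log2 fold change was 2.22 ± 0.45 (SE, adjusted p = 0.0352), it was 1.48 without TSK 3, and the call was lost without WT 1, 2 or 3 (adjusted p = 0.0605, 0.086 and 0.134). With limma-voom on all 6 libraries it was also lost (2.01, adjusted p = 0.0644). The summed level of 6 lymphatic endothelial genes was 28.3 to 38.5 CPM in WT and 39.5 to 62.7 CPM in TSK, and 4 of the 6 were tested with no call. The other 2 called by DESeq2 were Stab1, a scavenger receptor of macrophages and endothelium (log2 fold change 1.16, adjusted p = 0.0718 in edgeR and 0.00172 in DESeq2), and Tlr4 (0.71, adjusted p = 0.0538 and 0.0112), and their groups did not overlap. The 7 blood endothelial genes summed to 168.8 to 197.2 CPM in WT and 248.9 to 473.1 CPM in TSK (median log2 fold change 0.66, 1 called higher in edgeR). On deposited CPM, with no TMM factor, the lymphatic, macrophage and blood endothelial lists were thus all higher in TSK in summed level. The gap was narrow for the lymphatic list. On that scale 29.1% of all genes lay higher in every TSK library than in any WT library. The part of these lists in Lyve1 and Stab1 was not tested.

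The proteoglycans and link proteins that tie into hyaluronan were scarce. Of 7 listed genes, 3 were tested and none passed in either tool, with a median log2 fold change of 0.34, Hapln3 at 0.55 (adjusted p = 0.463) and Hapln1 at 0.34 (adjusted p = 0.641) having the largest values. Acan, Bcan, Hapln2 and Hapln4 had too few counts to be tested, which left Vcan as the large hyaluronan-binding proteoglycan with ample counts in this skin. Of the 8 genes listed for heavy chain transfer and crosslinking, the partners of TSG-6, 4 were tested and none passed in edgeR, with a median log2 fold change of 0.67, and 1, Itih5, passed in DESeq2. Itih5 had the largest log2 fold change of these, 1.07 (adjusted p = 0.067 in edgeR and 0.00229 in DESeq2), and was measured at 55.3, 79.7 and 73.2 CPM in WT and at 138, 243 and 159 CPM in TSK, with no overlap between groups. Ptx3 stood at -0.86 (adjusted p = 0.115), and Itih1, Itih2, Itih3 and Ambp were not tested for want of counts.

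Ordered by level per length, Cd44 was the highest of the 9 in both groups, at 26.5 ± 5.26 in WT and 32.6 ± 6.39 in TSK (counts per kilobase scaled to equal totals, SD, n = 3). In WT it was followed by Hyal1 (4.99 ± 0.973), Vcan (4.60 ± 1.27), Hyal2 (3.97 ± 0.836) and Tnfaip6 (2.90 ± 0.876), whose neighbours in that order overlapped within 1 SD. The synthases stood lower, at 0.866 ± 0.0259 for Has2, 0.424 ± 0.209 for Has1 and 0.410 ± 0.125 for Has3, the last pair within 1 SD of each other, and Cemip was lowest at 0.138 ± 0.0205. In TSK the order was Vcan (9.67 ± 2.17), Hyal2 (6.80 ± 1.56), Hyal1 (6.37 ± 1.26), Tnfaip6 (3.78 ± 1.01), Has1 (1.52 ± 0.238), Has2 (1.44 ± 0.249), Has3 (0.455 ± 0.14) and Cemip (0.347 ± 0.146) after Cd44. There, Vcan and Hyal2, Hyal2 and Hyal1, Has1 and Has2, and Has3 and Cemip could not be ranked within 1 SD. By their means Vcan stood behind Hyal1 in WT and ahead of it in TSK, in both groups within 1 SD. Has1 stood below Has2 in WT and ahead of it in TSK by the mean with either length, in TSK within 1 SD on merged exons.

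Because the fibroblast genes were higher in TSK, each gene was also set against the mean log2 level of the 14 fibroblast genes in the same library, on a TMM-scaled log2 CPM scale. That mean was 6.72, 7.57 and 7.50 in WT and 7.87, 7.99 and 8.53 in TSK. Relative to it, 8 of the 9 genes had a lower mean in TSK than in WT, as does any gene that rises less than the list mean. The median log2 fold change of all genes tested was -0.03. Of the 9, Has1 was the exception, 0.60 higher, at -7.31, -6.68 and -6.77 in WT and -6.16, -6.21 and -6.60 in TSK. All its TSK libraries lay above WT, though by a narrow gap, a separation seen for 0.886% of all genes tested. On log2 of deposited CPM + 1, which compresses low genes, that difference of Has1 was 0.053 and the groups overlapped. All TSK libraries lay below WT for 4 genes, Has2 (-0.59), Has3 (-1.13), Hyal1 (-0.94) and Tnfaip6 (-0.91), a pattern that 62% of all genes shared. Tnfaip6 was the tightest of these, at -5.47, -5.64 and -5.45 in WT and -6.41, -6.44 and -6.45 in TSK. The groups overlapped for Cd44 (-0.998), Hyal2 (-0.53), Vcan (-0.22) and Cemip (-0.09). Relative to this list, then, the values of Vcan and Cemip in TSK were mixed with those in WT.

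**Figure D4:**
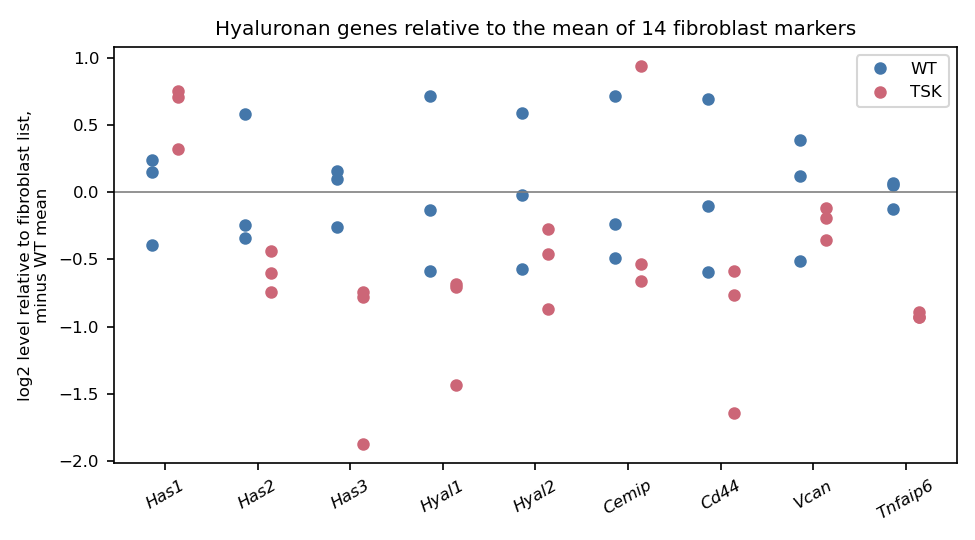
Level of each gene minus the mean of 14 fibroblast genes in the same library (log2, TMM-scaled), shown minus the WT mean (y axis), for 3 WT (blue) and 3 TSK (red) libraries. TSK points lie above the WT points for Has1, below them for Has2, Has3, Hyal1 and Tnfaip6, and among them for Hyal2, Cemip, Cd44 and Vcan.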

How the data were processed

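Total RNA from dorsal skin was depleted of ribosomal RNA, made into stranded libraries and sequenced as single reads. Reads were aligned by the authors with STAR to mm10 and quantified against an Ensembl annotation in Partek Flow 11.0. The authors deposited estimated counts per gene, of which 43.3% to 45.4% of nonzero values per library are whole, and CPM, normalized by the authors to library totals. The design had assumed counts, so the estimated counts were rounded to whole numbers. TSK was compared with WT over all 6 libraries with edgeR 4.0.16 (quasi-likelihood test, TMM, filterByExpr, Benjamini-Hochberg adjustment over 19971 genes, R 4.3.3). DESeq2 1.42.0 and limma 3.58.1 were alternatives, with other scalings, filters, pseudocounts of 1 and 0.1, a replicate block and each library left out. Per-length levels used merged exons of GENCODE M21, whose coordinates equal the table's for 99.3% of the 96.2% of genes matched by name. Similar transcripts were sought with BLAST 2.17.0. The test was checked on simulated data. Totals were 17561453 to 19219814 counts, and 3 libraries per group limit the precision.

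All 9 genes are named. Of each pathway list, the genes called are named, or otherwise the 2 with the largest absolute log2 fold change, with genes not tested, genes that overlap a member, the 3 genes most like Has2, Cemip, Cd44 and Vcan, and Fbn1. Gfpt1, Nagk, Ugp2, Amdhd2, Stab1, Tlr4 and Chtf8 are outside that rule and were chosen after values were seen. The genes and lists were chosen with earlier results of these data known. The labels number the replicates of both groups but do not say that the numbers pair mice. No replicate block was used in the main test. Replicate libraries differed by far more than sampling noise (chi-square divided by its degrees of freedom 8.85 or more for every pair within a group). Per the study's description each library is from 1 mouse.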

Additional observations from a re-analysis of the deposited data

How the results depend on the processing

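None of the 9 genes was called at an adjusted p under 0.05 by edgeR. The count of the 9 was 2 with library size only, 2 with DESeq2, 2 with limma-trend on log2 of deposited CPM + 1 and 2 with + 0.1, 1 with no filter (Has1, adjusted p = 0.0236) and 1 with the replicate block (Vcan, adjusted p = 0.0421). It was 0 when any 1 library was left out (0 to 0). Over 17 settings the log2 fold change of Has1 ran from 1.07 to 1.74 (adjusted p 0.00994 to 0.181, under 0.05 in 5) and that of Vcan from 0.49 to 0.92 (0.0214 to 0.273, under 0.05 in 5). All genes called numbered 678, and 1778 with library size only, 1544 with DESeq2 and 1387 with no filter. They numbered 1871 and 1860 with limma-trend (+ 1 and + 0.1), 794 with the replicate block and 58 at the study's limits in edgeR. With 1 library left out they ran from 60 to 1260 (60 without WT 3, 287 without WT 2, 1260 without WT 1). Precursor genes called numbered 5, and 1 (Ugdh) at the study's limits in edgeR. With DESeq2, which the study used, Ugdh (log2 fold change 1.46, adjusted p = 9.7e-11) and Gfpt2 (1.93, adjusted p = 5.2e-11) met those limits. Precursor genes called numbered 4 with the replicate block, upper quartile scaling or limma-voom (Gnpnat1 lost in each) and 0 to 4 with 1 library left out. The replicate numbers share no stated origin, deviations of same-numbered libraries correlated at 0.0112, 0.167 and -0.0938, and 2 of 6 libraries correlated best with their own number.

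The sign turned for Hyal1 (0.17), Cd44 (0.12) and Tnfaip6 (0.24) with library size only, for the same 3 with limma-trend on CPM + 1 (0.18, 0.15 and 0.18) and on CPM + 0.1 (0.20, 0.15 and 0.23), for Hyal1 without WT 1 (0.026), and for Tnfaip6 without WT 2 (0.034), WT 3 (0.12), TSK 1 (0.061) or TSK 2 (0.030). With 1 library left out Hyal1 ran from -0.21 to 0.026 and Tnfaip6 from -0.29 to 0.12. The cause was not tested. None of these was called in any setting. The level of Has2 in WT was 0.794 per kilobase of the longest transcript in place of 0.866 per kilobase of merged exons, and in TSK Has1 was 1.76 in place of 1.52 and Has2 1.31 in place of 1.44. The ratio of the summed synthases, 2.01 per length, was 1.48 with TMM scaling, an alternative chosen after seeing the data. The difference of Has1 from the fibroblast genes was 0.053 on log2 of deposited CPM + 1 in place of 0.60. With 10 to 79 counts, Has1 is limited by depth as well as by 3 mice per group.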

Other observations

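The genes whose TMM-scaled log2 level was most like that of 1 gene of each role are given as values over the 6 libraries, among genes with a mean of at least 5 CPM. For Has2 they were Irf4 (Pearson r = 0.987), Trip6 (0.986) and Gm44873 (0.982), and for Cemip they were Exog (0.977), Hr (0.972), a repressor of hair follicle and keratinocyte genes, and Eppk1 (0.965), the epidermal protein epiplakin. For Cd44 they were Commd8 (0.991), Cdc42se2 (0.984) and Tbcb (0.978), and for Vcan they were Pofut2 (0.993), Lrrc32 (0.992), which carries latent TGF-beta at the cell surface, and Praf2 (0.983). Each r is among the 3 highest of all such genes, over only 6 libraries that share depth and composition, so it is a description with no test. None of these genes passed the test between TSK and WT (edgeR adjusted p of 0.145 to 0.92).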
